A study of Mus musculus with 42 samples.

Results

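The genes described here are 10 genes of the integrated stress response: Atf4 itself and 9 genes known as targets of the ATF4 protein, namely Atf5, Ddit3, Cebpb, Trib3, Sesn2, Ddit4, Chac1, Asns and Psat1. They were taken by gene symbol in RNA-seq and, in 3′READS, by the polyadenylation sites (PASs) inside each annotated gene or within 4000 nt past its end on the same strand. They are 10 of the 14473 genes with at least 1 assigned PAS and 10 of the 12365 genes in RNA-seq, and 58 PASs belonged to them.

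The study exposed mouse cells to arsenic stress (AS, 250 µM sodium arsenite for 1 h), let some recover in normal medium (RC4, RC8, RC12 and RC24, for 4, 8, 12 and 24 h), and compared them with untreated (NT) cells. 38 libraries were 3′READS, which counts reads at the 3′ ends of poly(A)+ RNA, and 4 were strand-specific RNA-seq. NIH3T3 is a line of mouse fibroblasts and C2C12 a line of mouse myoblasts that form myotubes in low serum; the labels give the strain of every library as C57BL/6. No gene was deleted or added in any group.

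NIH3T3 total RNA was sequenced in 3 NT and 3 AS libraries (replicates 1, 2 and 4) and in 1 library for each recovery time, all of replicate 4. RNA-seq held 1 NIH3T3 library each of NT0h, AS, NT4h and RC4, where NT0h and NT4h are untreated cells taken beside AS and RC4. The same 4 conditions were labelled with 50 µM 4-thiouridine (4sU) for the last 1 h and split into a labelled (4sU) and an unlabelled flow-through (Ft) fraction, 1 library each. RNA bound to the stress granule protein TIA1 and its cytoplasmic input were sequenced from NT and AS cells with 2 replicates. Cytoplasmic RNA of proliferating (MB) and differentiated (MT) C2C12 cells had 1 library of each of the 4 conditions, and total RNA of unstressed MB and MT cells had 2 libraries each.

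When eIF2α is phosphorylated under stress, most translation slows, while the ATF4 mRNA, which carries upstream open reading frames, is translated more. ATF4 pairs with other bZIP proteins such as C/EBPβ on composite elements and turns on genes for amino acid synthesis, redox balance and feedback. Arsenite, which attacks protein thiols, is a classical trigger of this response.

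The 3′READS libraries held 1048335 to 6974664 reads and the RNA-seq libraries 17137579 to 25194062, and 92.24% of 3′READS reads were assigned to a gene. Of 8 myotube markers, all had reads in MT cells, with a summed level of 13390 to 25910 RPM (reads per 1000000 reads of the library, after scaling between libraries), against 72.4 to 302.5 RPM in MB cells. Of 5 fibroblast markers, all had reads in NIH3T3 total RNA, at a summed level of 1318 to 4537 RPM, and the 4 markers of leukocytes, epithelium and endothelium together never passed 3.11 RPM. The fibroblast markers do not tell the 2 lines apart, with 2060 to 2166 RPM in MB and 12410 to 14430 RPM in MT total RNA of C2C12. No 2 libraries were identical. The study calls replicates of AS in total RNA, of the TIA1 RIP and of MB against MT cells biological. It does not say whether they were separate cultures. P-values measure the spread between these samples, part of which may be technical. In C2C12 cytoplasmic RNA, which had no replicates, they measure the spread between NT0h and NT4h and between MB and MT cells in their response.

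Composite elements that bind C/EBP and ATF proteins have the letters TGATGNAA, which were searched on both strands from 250 bases before to 50 after each RefSeq start (GRCm38.p6). Of the 10 genes, 3 held a match, and 1219 of 27025 genes with such a window (4.51%) did. The windows of Chac1, Trib3 and Asns are shown because these are the 3 of the 10 genes that hold the element. Each has been placed in NCBIM37 by its only exact match there, and the capitals mark the element.
Chac1, chr2:119176774-119176803, minus strand: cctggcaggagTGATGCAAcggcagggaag
Trib3, chr2:152169764-152169793, plus strand: ccccgcccggcTGATGTAAacctgagctaa
Asns, chr6:7643214-7643243, minus strand: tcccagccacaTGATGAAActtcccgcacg

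Counted in bases from the start of the gene, the element began at −193 in Chac1 and at 14 in Trib3, in both on the strand opposite to the gene, and at −23 in Asns, on its own strand. No match in the other 7 windows says only that these letters are not there. Of the 22 genes with a window in a wider list of 26 genes known to respond to ATF4 or CHOP, 9 held the element.

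The mRNAs of the 10 genes ended almost always at 1 site. The most used PAS took at least 90.8% of the 3′READS reads of a gene in all but Asns, where the main site took 53.8% and a second site, 507 nt after the last coding base against 153 nt for the main site, took 27.6%. The 30 bases that end at a PAS are shown for the genes the stress results turn on and for Asns, in NCBIM37, with the hexamer AATAAA in capitals where it was found. The minor PAS of Ddit3 lies 1 nt past the end of a coding exon, on the first base of the next intron, so that all of its printed bases but the last are coding sequence.
Atf4 main, chr15:80087942-80087971, plus strand: gctgtAATAAAttattttgtagtgaaagta
Ddit3 main, chr10:126733313-126733342, plus strand: tccatgtccagtaaagtgactttgtgtcaa
Ddit3 minor, chr10:126732506-126732535, plus strand: cctatatctcatccccaggaaacgaagagg
Asns main, chr6:7625165-7625194, minus strand: aagaAATAAAagtttcacatctgaaatgcc
Asns second, chr6:7624811-7624840, minus strand: aaacttctcaaatacagggtcagttgctaa

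The main PAS of Atf4 lay 84 nt after the last coding base, at percentile 5 of 10357 genes, that of Asns 153 nt (percentile 11.6) and that of Ddit3 198 nt (percentile 15.9). Sesn2 had the longest of the 10, with 1687 nt (percentile 76.2). The median of the 10 genes was 666 nt and that of all genes 738 nt. The pentamer ATTTA, the core of AU-rich elements, was in the annotated 3′UTR of 4 of the 10 genes and of 63.2% of 19294 genes, and TTTTT in 7 of 10 and 70.7%.

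The levels of the 10 genes in unstressed NIH3T3 cells spanned more than 2 orders of magnitude. In RNA-seq, in RPM per kilobase of coding length, the median of the 2 untreated libraries was 220 for Cebpb (165.5 to 275), 195 for Atf4 (189 to 200), 194.5 for Psat1 (184 to 205) and 166 for Ddit3 (150 to 182), whose ranges overlapped in part. Asns followed at 87.1 (84.5 to 89.7), Atf5 at 41.7 (39.3 to 44.03) and Ddit4 at 12.2 (6.93 to 17.4). Sesn2 at 5.60 (5.37 to 5.82), Chac1 at 4.55 (4.46 to 4.65) and Trib3 at 1.57 (1.56 to 1.58) were the lowest. From Ddit3 down to Trib3 the ranges of neighbours in this order did not overlap (n = 2 libraries). The order was another in 3′READS of NT total RNA, which counts 3′ ends (n = 3 libraries). There Asns had the lowest median, 9.64 RPM, against 86.2 RPM for Trib3 and 161 RPM for Ddit4. The order therefore holds for RNA-seq only.

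The 3 NT libraries of NIH3T3 total RNA differed widely. The highest level was 5.92 times the lowest for Atf5, 5.88 for Cebpb, 5.56 for Asns, 5.41 for Ddit4, 5.12 for Ddit3 and 4.36 for Chac1, and 1.79 times for Sesn2. AS libraries deviated from their group mean together with the NT library of the same number, so stress is described below within replicate sets. A difference between groups in bulk RNA cannot tell fewer cells of a kind from less RNA per cell.

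After 1 h of AS, Ddit3 and Chac1 were the genes called higher in NIH3T3 total RNA by edgeR with the replicate set as a block. Ddit3, which encodes the transcription factor CHOP, had 165, 241 and 47.1 RPM in NT and 680, 676 and 146 RPM in AS (replicates 1, 2 and 4). Chac1, whose product degrades glutathione, had 122, 55.9 and 28.0 RPM in NT and 382.5, 187 and 89.3 RPM in AS. Every AS library was above the NT library of its own set for both genes, but the AS library of replicate 4 was below the NT library of replicate 1 for Ddit3 and Chac1 alike.

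Within sets the AS levels of Ddit3 were 4.12, 2.81 and 3.11 times NT, and those of Chac1 3.14, 3.35 and 3.19 times. With the set as a block, the log2 change was 1.73 ± 0.17 (SE) for Ddit3 (adjusted p = 0.0188) and 1.69 ± 0.15 for Chac1 (adjusted p = 0.0153; edgeR, 3 libraries each). They were 2 of the 10 genes, against 9 of 10057 genes tested (0.0895%) that were higher and 0 (0%) that were lower. The planned test had no block, and the block became the rule for calls after seeing the data. Without the block, 0 of 10 genes and 0 of 10057 (0%) passed, with 21 higher and 0 lower at an unadjusted p under 0.05, and DESeq2 called 0 of the 10. With the block, DESeq2 called Ddit3 and Chac1 and also Sesn2, Trib3, Atf4 and Ddit4 (DESeq2 adjusted p = 0.00284 to 0.0288 for these 4). Both blocked edgeR calls were lost without the libraries of replicate 1 (adjusted p = 0.0533 for each gene), and that of Chac1 without those of replicate 2 (adjusted p = 0.0710).

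The other 8 genes did not pass edgeR's blocked test after AS. Trib3, a pseudokinase that binds ATF4, had 103, 86.2 and 38.8 RPM in NT and 247, 179 and 46.3 in AS, so that its ratio was 2.39, 2.08 and 1.19. Sesn2 and Ddit4, both inhibitors of mTORC1 signalling, had ratios of 1.60, 2.42 and 1.68 and of 1.36, 1.65 and 1.55. Atf4 had 1329, 2460 and 631 RPM in NT and 1918, 3070 and 1154.5 RPM in AS, with ratios of 1.44, 1.25 and 1.83. Each of these genes was higher in AS in all 3 sets, as was Cebpb (1.20 to 1.32).

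The remaining 3 were the bZIP factor Atf5 and the genes of asparagine and serine synthesis, Asns and Psat1. Atf5 had ratios of 0.900, 0.814 and 0.934, below 1 in all 3 sets. Asns had 0.957, 1.71 and 2.27 and Psat1 1.12, 0.934 and 1.11, on both sides of 1. The median log2 change of the 10 genes was 0.58 and that of all genes −0.02, both with the block.

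In RNA-seq and in cytoplasmic input RNA, Chac1 and Ddit3 again had the 2 highest AS ratios of the 10 genes. RNA-seq gave Ddit3 at 92.2 RPM in NT0h and 423 RPM in AS, and Chac1 at 3.00 and 28.5 RPM, ratios of 4.58 and 9.52. Trib3 went from 1.68 to 6.68 RPM (ratio 3.97) and Sesn2 from 8.40 to 31.5 RPM (3.75). With 1 library per condition there is no test; 4 of the 10 genes were at least 2-fold higher and 0 at least 2-fold lower, against 4.19% and 1.5% of 10918 genes. Ddit4 (1.81) and Atf4 (1.70) were below that limit.

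In the cytoplasmic input RNA of NIH3T3 cells, Ddit3 had 90.9 and 175 RPM in NT and 363 and 515 RPM in AS, and the groups did not overlap. Chac1 had 26.3 and 30.3 RPM in NT and 58.7 and 118 RPM in AS, also without overlap. Neither passed over all genes: the log2 change of Ddit3 was 1.72 ± 0.46 (edgeR adjusted p = 1, DESeq2 adjusted p = 0.0985). Of the 10 genes 0 passed, as did 1 of 9843 genes (0.0102%) upward and 0 (0%) downward; 99 were higher and 61 lower at an unadjusted p under 0.05. Atf4, at 946 and 1527 RPM in NT and 1291 and 1382 RPM in AS, overlapped.

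**Figure D1:**
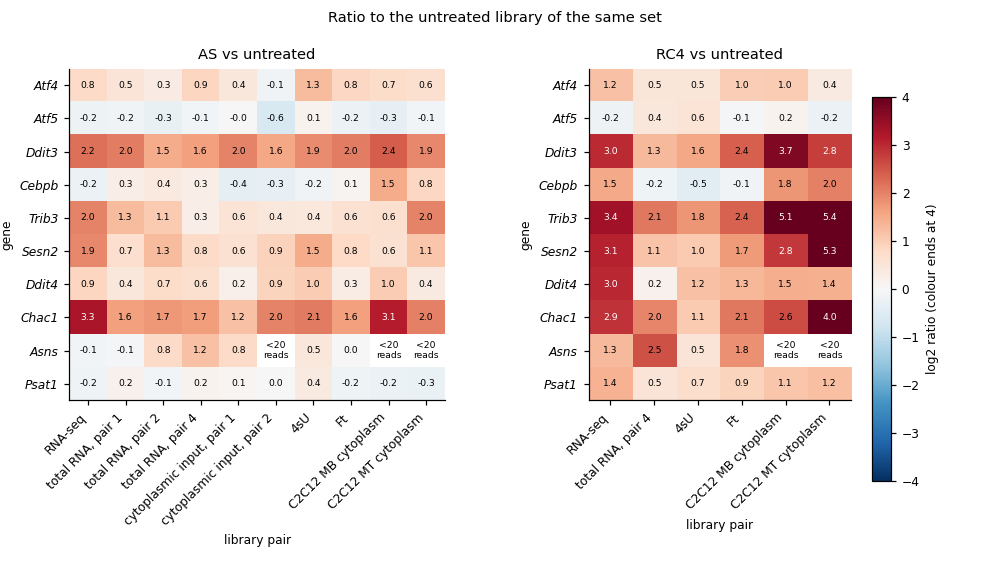
Heat map of log2 ratios of the 10 genes (vertical axis) in AS (left) and RC4 (right) over the untreated library of the same set and replicate number (horizontal axis); each cell is 1 pair of libraries, and pairs with under 20 reads in the higher library are blank. Ddit3 and Chac1 were above 1 in all 10 AS pairs, while Atf5 lay between −0.61 and 0.15; at RC4, Trib3, Ddit3, Chac1 and Sesn2 were above 1 in all 6 pairs.

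At 4 h of recovery more of the 10 genes were higher. In total RNA of replicate 4, Asns and Trib3 had the highest ratios to NT, though Asns rested on few reads. In NIH3T3 total RNA of replicate 4, Trib3 was at 38.8 RPM in NT, 46.3 in AS and 167 in RC4, and Asns at 7.63, 17.4 and 44.4 RPM. Chac1 was at 28.0, 89.3 and 109 RPM and Sesn2 at 62.3, 105 and 136 RPM, both highest at RC4. Ddit3 was at 47.1, 146 and 115 RPM, highest at AS.

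RC4 was 1 library, so its spread is assumed to be that of the NT and AS libraries (2 residual degrees of freedom with the block), and it shares its NT libraries with the AS comparison. On that assumption, 5 of the 10 genes rose at RC4 with the replicate block: Trib3 by 2.44 ± 0.32 (log2 ± SE, adjusted p = 0.00775), Asns by 2.13 ± 0.46 (adjusted p = 0.0339), Chac1 by 1.97 ± 0.25 (adjusted p = 0.00775), Ddit3 by 1.34 ± 0.28 (adjusted p = 0.0285) and Sesn2 by 1.22 ± 0.28 (adjusted p = 0.0424). This compares with 4.34% of 10057 genes higher and 2.29% lower. Scaled by library totals, the median over all genes was −0.20, the split over all genes was 321 higher to 498 lower in place of 436 to 230, and the same genes but Sesn2 rose. Asns rested on 12 reads in the NT library of replicate 4 and 74 in RC4. Its main PAS had 12 and 44 of these reads. The second PAS had 23 in RC4 and was not listed in NT, where fewer than 5 reads are not shown. The call of Sesn2 was lost under 4 alternatives (adjusted p = 0.0539 to 0.0782).

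Without the block, 0 of the 10 genes and 0 of all genes (0%) passed at RC4, where 245 genes were higher and 279 lower at an unadjusted p under 0.05, and DESeq2 called 0 of the 10. Recovery libraries were all of replicate 4 while NT also held replicates 1 and 2, and the log2 value of Ddit3 was −0.39 without the block and 1.34 with it. The genes that did not pass at RC4 were Atf4 (631 RPM in NT of replicate 4 and 892 RPM in RC4), Atf5 (256 and 349), Psat1 (627 and 889), Ddit4 (47.1 and 52.8) and Cebpb (616 and 543).

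Later in recovery the levels of most of the 10 genes were nearer to NT. At RC8 the ratio to NT of the same set was 3.62 for Asns and 0.550 to 1.16 for the other 9. At RC8, RC12 and RC24, Trib3 was at 42.3, 41.0 and 23.8 RPM, against 38.8 RPM in NT of the same set. Chac1 was at 27.1, 19.2 and 13.2 RPM against 28.0, and Atf4 at 477, 532 and 364 RPM against 631. Asns was above NT at all 3 times, at 27.6, 16.6 and 9.69 RPM against 7.63 RPM, but at RC24 it had 11 reads against 12 in NT.

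Of the 10 genes 0 passed at RC8, RC12 or RC24 with or without the block. With the block, 0.0895% of genes were higher and 0.0696% lower at RC8, and 0% in either direction at RC12 and RC24. Without it, 0% passed at each of the 3 times; at an unadjusted p under 0.05, 49 genes were higher and 107 lower at RC8, 17 and 67 at RC12, and 2 and 214 at RC24. Cebpb was at 339, 328 and 581 RPM against 616 in NT, with a lowest ratio of 0.533 at RC12.

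**Figure D2:**
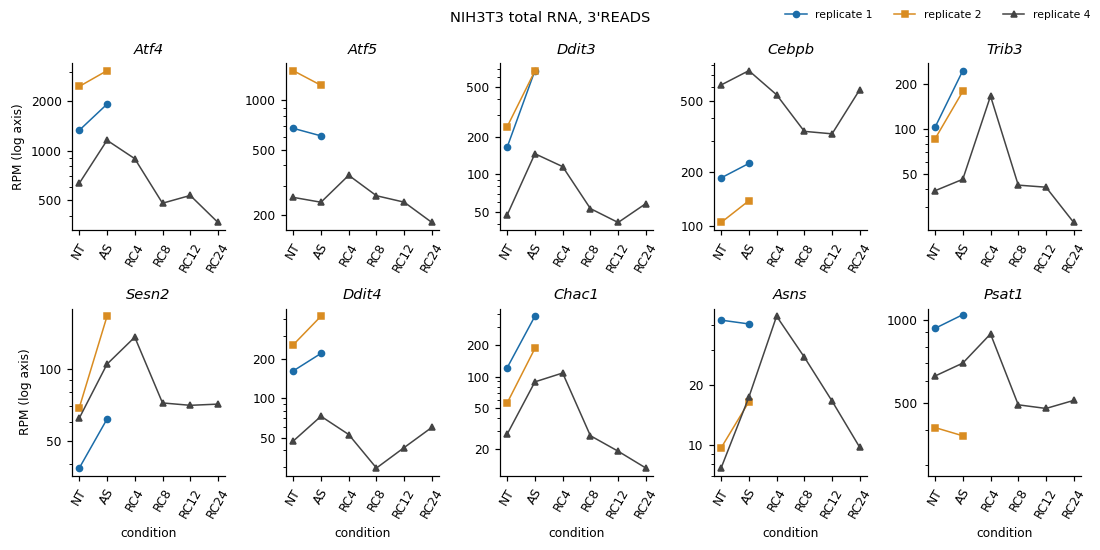
RPM (log axis) of each gene in NIH3T3 total RNA by condition (horizontal axis), with 1 point per library and 1 line per replicate set. Replicate 4 alone has recovery times; Trib3 and Asns peak at RC4 (167 and 44.4 RPM) and Ddit3 at AS (146 RPM in that set), and the NT points of the 3 sets lie up to 5.92-fold apart.

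In RNA-seq at RC4, 9 of the 10 genes were at least 2-fold above NT4h and 0 at least 2-fold below, against 17.2% and 15.3% of 10938 genes. The 5 genes with the highest ratios were Trib3 (10.3, from 1.66 to 17.2 RPM), Sesn2 (8.36, from 7.76 to 64.8 RPM), Ddit4 (8.08, from 4.78 to 38.7 RPM), Ddit3 (7.87, from 75.9 to 598 RPM) and Chac1 (7.40, from 3.12 to 23.1 RPM). The ratio of Cebpb was 2.83, of Psat1 2.61, of Asns 2.46 and of Atf4 2.26, and Atf5 at 33.5 and 29.4 RPM had a ratio of 0.878. The Ddit4 ratio took in an untreated level that was itself lower at NT4h than at NT0h, 4.78 against 12.0 RPM; it was the only 1 of the 10 genes at least 2-fold apart between the 2 untreated libraries, where 2.45% of genes were. Against NT0h its ratio was 3.23, and that of Cebpb was 1.70.

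The RNA-seq ratios at RC4 depended on scaling. Scaled by library totals in place of the median ratio, all log2 values were lower by 0.81, and 5 of the 10 genes remained at least 2-fold higher (Ddit3, Trib3, Sesn2, Ddit4 and Chac1, at 4.24 to 5.92). Over all genes the split of higher to lower was 789 to 4510 by totals and 1878 to 1671 by the median ratio. By totals Atf4 was at 1.30, Asns at 1.41, Psat1 at 1.50, Cebpb at 1.62 and Atf5 at 0.502. Trib3 was among the lowest counted, with 33 reads in NT4h.

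The labelled fraction is enriched for RNA made during the last 1 h and the flow-through for older RNA. In AS the label was present during the same 1 h as arsenite. How much newly made RNA stayed in the flow-through was not tested, so a rise there is not read as a rise of older RNA. In AS, 5 of the 10 genes were at least 2-fold higher in 4sU RNA and 0 lower, against 5.84% and 7.32% of 8733 genes. Chac1 was at 68.1 RPM in NT0h and 289.5 RPM in AS (ratio 4.25), Ddit3 at 276 and 1032 RPM (3.74) and Sesn2 at 79.1 and 223 RPM (2.83). Atf4, at 870 and 2096 RPM (2.41), and Ddit4, at 466 and 934 RPM (2.00), were also above the limit in the labelled fraction.

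In the flow-through 2 of the 10 were at least 2-fold higher after AS and 0 lower, against 4.64% and 4.1% of 8608 genes. They were Ddit3, at 121 and 497 RPM (4.12), and Chac1, at 25.7 and 79.6 RPM (3.09). Atf4 had a ratio of 1.78 there, Sesn2 of 1.76 and Ddit4 of 1.24, each lower than in 4sU RNA. Scaled by totals the 4sU AS ratios were lower by 0.14 in log2 and 4 genes were at least 2-fold higher, with a split over all genes of 376 to 880 in place of 510 to 639.

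At RC4, 5 of the 10 genes were at least 2-fold above NT4h in 4sU RNA and 0 below (15.3% and 13.5% of 9946 genes), led by Trib3 at 87.9 and 299 RPM (3.40) and Ddit3 at 223 and 656 RPM (2.95). In the flow-through, 6 were at least 2-fold higher and 0 lower (15.5% and 14.8% of 8955 genes): Ddit3 at 115 and 610 RPM (5.29), Trib3 at 49.0 and 252 RPM (5.14), Chac1 at 24.9 and 108 RPM (4.33), Asns at 12.6 and 44.4 RPM (3.53), Sesn2 at 37.8 and 123 RPM (3.26) and Ddit4 at 256 and 638 RPM (2.495). For Chac1, the 4sU level was 289.5 RPM in AS and 114 RPM in RC4, while the Ft level was 79.6 RPM in AS and 108 RPM in RC4. By totals, log2 ratios at RC4 were lower by 0.35 in 4sU RNA and 0.45 in Ft RNA, and 2 and 5 genes were at least 2-fold higher. Over all genes the split was 988 to 2186 by totals and 1518 to 1343 by the median ratio in 4sU RNA, and 778 to 2485 and 1384 to 1321 in Ft RNA.

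The untreated libraries of each fraction set the scale of these ratios. NT4h was 0.762 to 1.03 times NT0h over the 10 genes in 4sU RNA and 0.602 (Asns) to 1.15 times in Ft RNA, and 0 of 10 were at least 2-fold apart in either (5.04% and 5% of all genes). Against NT0h, the RC4 ratio of Asns in Ft RNA was 2.13 in place of 3.53.

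The ratio of Ft to 4sU RNA, a measure the study used for stability, was low for most of the 10 genes outside recovery. It also depends on the 4sU level, which rose after AS for genes such as Chac1, Ddit3 and Sesn2. A low value is therefore not read here as low stability. In NT0h cells 7 of 10 were below the median of all genes, 8 in AS, 7 in NT4h and 2 in RC4. In AS the log2 ratio was −1.96 for Sesn2, −1.86 for Chac1, −1.70 for Ddit4, −1.23 for Trib3 and −1.05 for Ddit3, against a median of −0.10 over 8626 genes. In RC4 it was −0.37, −0.08, −0.68, −0.25 and −0.11 for the same genes, against a median of −0.26 over 9048 genes.

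Adjusted for the number of Us in the transcript, which affects capture, 7, 9, 8 and 7 of the 10 genes were below 0 in NT0h, AS, NT4h and RC4. The count at RC4 therefore rested on this choice. Ddit3, with 157 Us, moved most at RC4, from 0.15 above the median of all genes to an adjusted value of −1.06. Adjusted values are centred on 0. Psat1 was on the other side, at 0.72, 0.18, 0.44 and 0.64 before adjustment in the 4 conditions.

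**Figure D3:**
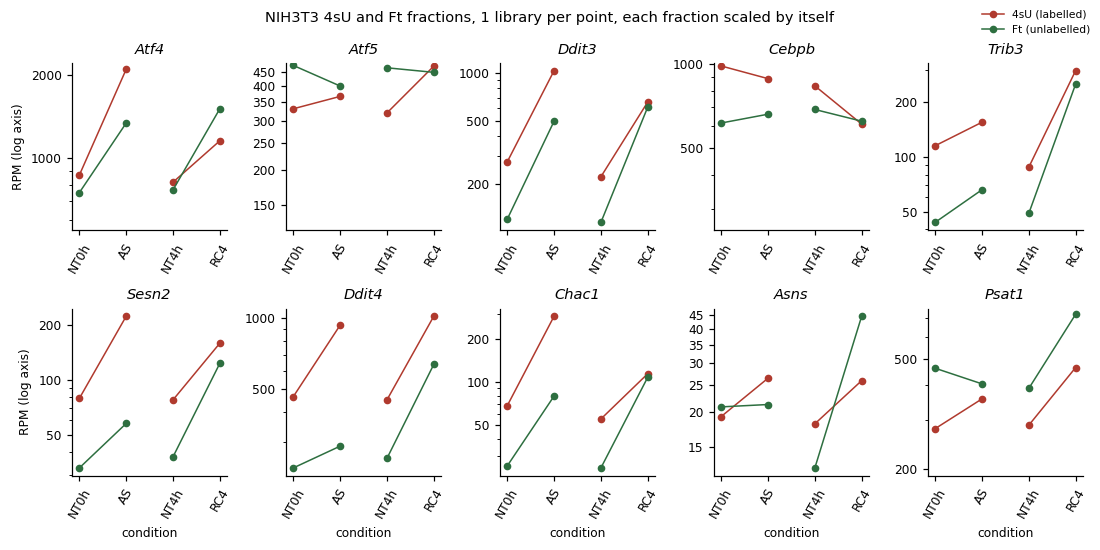
RPM (log axis) in the 4sU (labelled) and Ft (unlabelled) fractions of NIH3T3 RNA by condition (horizontal axis), 1 library per point, with lines from each untreated library to the stressed one beside it. Chac1 and Sesn2 reach their highest 4sU level in AS (289.5 and 223 RPM) and their highest Ft level in RC4 (108 and 123 RPM).

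In cytoplasmic RNA of C2C12 cells Ddit3 and Chac1 rose after AS and 8 of the 10 genes rose at RC4. Ddit3 was at 146, 124.35, 783 and 1613 RPM in MB cells and at 191, 184, 726 and 1260 RPM in MT cells (NT0h, NT4h, AS and RC4). Trib3 was at 8.07, 4.52, 12.6 and 156 RPM in MB and at 11.9, 4.84, 47.3 and 198 RPM in MT cells. Sesn2 was at 9.22, 15.3, 14.0 and 108 RPM in MB and at 9.45, 4.49, 20.3 and 177 RPM in MT cells. The RC4 library was the highest of the 4 for these 3 genes in both states.

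Over both states together (4 NT, 2 AS and 2 RC4 libraries, with the state as a covariate), Ddit3 rose by 2.23 ± 0.21 (log2 ± SE, adjusted p = 0.00157) and Chac1 by 2.51 ± 0.29 (adjusted p = 0.00437) after AS. They were 2 of 10, against 0.446% of 9640 genes higher and 0.0311% lower. Chac1 was at 10.4 and 18.7 RPM in untreated MB cells and at 91.6 RPM in AS. Without the AS library of MB cells neither passed (adjusted p = 0.0848 and 0.194).

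At RC4, 8 of the 10 genes rose over both states, against 4.82% of genes higher and 3.8% lower. The log2 changes were 4.66 ± 0.39 for Trib3, 3.93 ± 0.38 for Sesn2, 3.32 ± 0.28 for Chac1, 3.17 ± 0.21 for Ddit3, 2.07 ± 0.20 for Cebpb, 1.46 ± 0.18 for Ddit4, 1.02 ± 0.17 for Psat1 and 0.76 ± 0.19 for Atf4, with adjusted p from 2.68e-05 (Ddit3) to 0.0383 (Atf4). Atf4 did not pass under 7 alternatives. By library totals the other 7 passed, and the split over all genes was 286 higher to 609 lower in place of 465 to 366. Atf5, at 242 to 269 RPM in untreated and RC4 MB cells and 482 to 562 RPM in such MT cells, did not pass (adjusted p = 0.935), nor did Asns, which had at most 19 reads in a library.

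Taken 1 state at a time, with 1 library per condition and no test, 4 of 9 genes with enough reads were at least 2-fold higher in MB cells in AS (Chac1 8.83, Ddit3 5.35, Cebpb 2.77 and Ddit4 2.02) and 0 lower, against 5.97% and 1.9% of genes. In MT cells 4 of 9 were higher (Chac1 4.09, Trib3 3.97, Ddit3 3.79 and Sesn2 2.15) and 0 lower, against 5.95% and 3.91%. Chac1 and Ddit3 were in both sets of 4. Whether the states differ in their response was not tested.

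At RC4, 8 of 9 genes were at least 2-fold higher in MB cells and 0 lower (13.1% and 13.8% of genes), led by Trib3 (34.5) and Ddit3 (13.0). In MT cells 7 of 9 were higher and 0 lower (8.44% and 9.85%), led by Trib3 (40.9), Sesn2 (39.5) and Chac1 (15.8). Trib3 rested on 8 reads in NT4h of MB cells and 14 in NT4h of MT cells, and against NT0h its ratios were 19.3 and 16.6. Sesn2 in MT cells, with 13 reads in NT4h, had a ratio of 18.8 against NT0h, and Chac1 one of 9.88; in MB cells Sesn2 was at 7.09 against NT4h and 11.7 against NT0h, and Chac1 at 6.04 and 10.9. The NT4h levels of Trib3 and Sesn2 in MT cells were 0.406 and 0.476 times those of NT0h. These 2 of 9 genes were at least 2-fold apart between the untreated MT libraries, as were 4.19% of genes, and 0 of 8 between those of MB cells, where 10.6% were. By totals, log2 ratios were lower by 0.36 in MB and 0.14 in MT cells at RC4, with 6 and 7 genes at least 2-fold higher; the split over all genes was then 550 to 1549 against 905 to 950 in MB cells.

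MT cells had higher levels of most of the 10 genes than MB cells in C2C12 total RNA. MT cells were also kept in low serum, so that differentiation and culture conditions at harvest cannot be told apart. 9 of the 10 genes rose in MT relative to MB cells and 0 fell, against 32.6% and 29.3% of 10302 genes. Trib3 had 16.1 and 14.4 RPM in MB and 710 and 718 RPM in MT cells, a ratio of 46.9 (edgeR adjusted p = 7.91e-15). Ddit3 had 81.2 and 86.5 RPM in MB and 934 and 942 RPM in MT cells (11.2-fold), and Chac1 had 19.3 and 22.3 RPM and 228 and 221 RPM (10.7-fold).

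For these genes the groups did not overlap and the replicates of a group were close. Atf5 was 5.16-fold higher, Asns 4.53, Sesn2 3.58, Atf4 2.46, Cebpb 2.34 and Psat1 1.96-fold, with adjusted p at or below 9.22e-07. Ddit4 had 171 and 141 RPM in MB and 195 and 172 RPM in MT cells and did not pass (adjusted p = 0.0886). Atf4 had a log2 difference of 1.30 ± 0.10, and its call was lost where reads past the annotated gene end, which include its main PAS, were left out (0.37, adjusted p = 0.257).

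The contrast differed in the cytoplasmic libraries of unstressed cells, a set that was normalized separately from total RNA. Trib3 was at 8.07 and 4.52 RPM in untreated MB and 11.9 and 4.84 RPM in untreated MT cytoplasm, where the states overlapped, against 14.4 to 16.1 and 710 to 718 RPM in total RNA. Ddit3 was at 146 and 124.35 RPM in MB and 191 and 184 RPM in MT cytoplasm, against 81.2 to 86.5 and 934 to 942 RPM in total RNA. Atf5 differed in both, with 249 and 242 RPM in MB and 555 and 562 RPM in MT cytoplasm. Psat1 was on the other side there, with 248 and 218 RPM in MB and 169 and 139 RPM in MT cytoplasm and no overlap, against 308 to 350 RPM in MB and 642 to 649 RPM in MT total RNA. RNA fraction and set of cultures changed together here and cannot be told apart. The summed myotube markers were at 13390 to 20580 RPM in MT cytoplasm and 24580 to 25910 RPM in MT total RNA, and the proliferation markers at 242 to 319 RPM and 245 to 250.5 RPM. The fibroblast markers were at 324 to 979 RPM in MB and 3161 to 6445 RPM in MT cytoplasm, and at 2060 to 2166 RPM in MB and 12410 to 14430 RPM in MT total RNA. All 3 lists had reads from each of their genes in these MT libraries, and their part in the result was not tested.

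**Figure D4:**
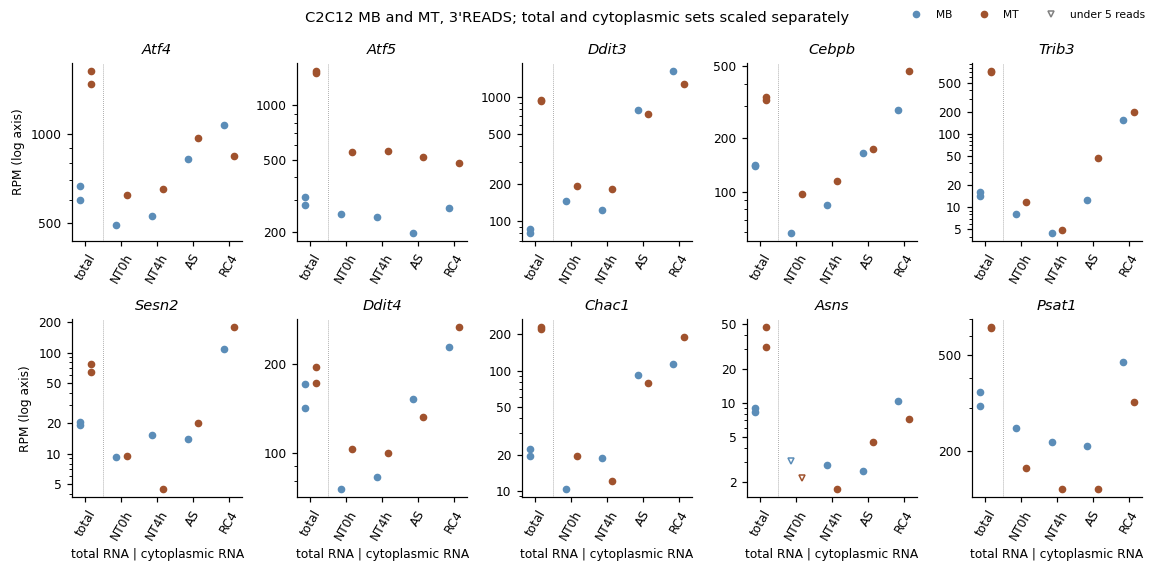
RPM (log axis) of each gene in C2C12 total RNA (left of the dotted line, 2 libraries per state) and cytoplasmic RNA by condition (right, 1 library per point); open triangles mark libraries with no listed read, drawn at 5 reads. Trib3, Ddit3 and Chac1 are far apart between MB and MT cells in total RNA (46.9, 11.2 and 10.7-fold) and close in untreated cytoplasm.

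TIA1 is an RNA-binding protein that gathers in stress granules. Relative to input, Ddit3 and Atf4 had the lowest mean TIA1 ratios of the 10 genes in AS cells. Ddit3 had 58.1 and 87.0 RPM in TIA1-bound RNA of NT cells and 108 and 78.7 RPM of AS cells, so that its log2 ratio to input was −0.65 and −1.01 in NT and −1.76 and −2.71 in AS. Atf4 had 664 and 767 RPM in TIA1-bound RNA of NT cells and 536 and 418 RPM of AS cells, with log2 ratios of −0.51 and −0.99 in NT and −1.27 and −1.72 in AS. For both genes the AS and NT ratios did not overlap. The TIA1-bound levels of Ddit3 did overlap between NT and AS cells, while its input levels did not.

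TIA1-bound RNA and input came from the same lysates by the study's methods, and same-numbered libraries are taken to share 1. With the lysate as a block, added after seeing the data, 3 of the 10 genes were lower than input in AS cells and 0 higher (8.91% and 7.57% of 9843 genes): Ddit3 with a log2 value of −2.23 ± 0.34 (SE, adjusted p = 0.00119), Atf4 of −1.50 ± 0.28 (adjusted p = 0.00345) and Atf5 of −0.91 ± 0.27 (adjusted p = 0.0386). In NT cells Ddit4 alone was higher, by 0.97 ± 0.31 (adjusted p = 0.0460), and 0 of 10 were lower (8.59% and 9.86% of genes).

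Without a block, neither Ddit3 nor Atf4 passed edgeR's test in AS cells (Ddit3 −2.24 ± 0.47, adjusted p = 0.0553; Atf4 −1.49 ± 0.38, adjusted p = 0.0765), while both passed with DESeq2 (adjusted p = 1.17e-04 and 7.35e-04). Of the 10 genes 0 then passed in either direction in NT cells (1.78% of genes higher, 1.7% lower) or in AS cells (0.213% higher, 0.762% lower). The difference between AS and NT in the ratio was passed by 0 of the 10 and by 0 of 9843 genes (0%) with edgeR, where 117 were higher and 98 lower at an unadjusted p under 0.05, and DESeq2 called 0 of the 10. It was −1.36 ± 0.64 for Ddit3. With the lysate block 0 of the 10 passed it, and 1 of 9843 genes was lower (0.0102%).

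Cebpb was on the other side of input in all 4 pairs, with log2 ratios of 0.76 and 0.73 in NT and 0.78 and 0.49 in AS. Ddit4 had 0.98 and 0.95 in NT and 0.64 and −0.27 in AS. Atf5 was below input in all 4 pairs (−0.51 and −0.71 in NT, −0.81 and −1.003 in AS). Of these 3, Ddit4 in NT cells and Atf5 in AS cells passed with the lysate block and none did without it. Trib3, Sesn2, Chac1, Psat1 and Asns had ratios on both sides of 0.

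**Figure D5:**
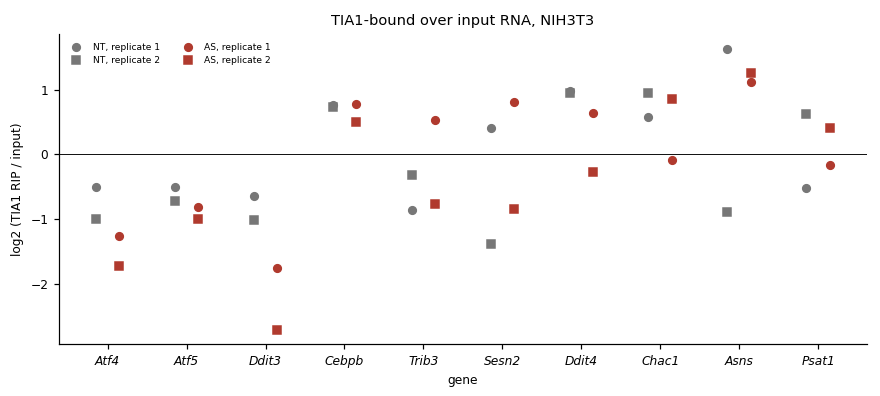
Log2 ratio of TIA1-bound to input RNA (vertical axis) for each gene (horizontal axis), with 1 point per replicate pair of NT and AS cells. Ddit3 and Atf4 lie lowest in AS (−2.71 to −1.27), and the points of Trib3, Sesn2, Ddit4, Chac1, Psat1 and Asns fall on both sides of 0.

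The choice of PAS was measured for the 3 genes with over 5 reads at each of their 2 most used sites in all 6 NT and AS libraries of NIH3T3 total RNA. The distal share of Atf4 was 98.6% ± 0.72 in NT and 99.1% ± 0.47 in AS, that of Cebpb 7.24% ± 3.22 and 8.02% ± 3.20, and that of Psat1 96.3% ± 1.13 and 95.5% ± 0.51 (SD, n = 3 each). The differences of 0.54, 0.78 and −0.76 percentage points gave p = 0.4, 0.7 and 0.4 (two-sided exact permutation tests, whose smallest possible p with 3 against 3 is 0.1). The other 7 genes had too few reads at a second site.

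The minor PAS of Ddit3 shown above, with 0.79% of its reads, was listed in some sets and not in others. This site lies 1 nt past an exon end and has no AATAAA in the bases shown, and whether it is a true 3′ end was not tested. It had reads in 4 of 4 libraries of the 4sU and 4 of 4 of the Ft fraction (10 to 46 reads), in 6 of 8 C2C12 cytoplasmic and in 3 of 4 C2C12 total RNA libraries. In the 10 NIH3T3 total RNA and the 8 TIA1 and input libraries it was listed in 0, and the files list no site under 5 reads. The main PAS of Asns was likewise listed in 2 of 8 TIA1 and input libraries and its second PAS in 8 of 8, while in NIH3T3 total RNA the main site was listed in 10 of 10 and the second in 7 of 10.

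Other genes of the pathway were followed through the wider list of 26 genes. In NIH3T3 total RNA with the replicate block, 0 of the 24 measured genes passed after AS (0.0895% of all genes were higher) and 9 rose at RC4, with 0 lower (4.34% and 2.29%). RC4 is again 1 library, and without the block 0 of the 24 passed. These were Atf3 (log2 4.01) and Nupr1 (1.37), which encode stress-induced transcription regulators, Ppp1r15a (2.03), whose product GADD34 directs eIF2α dephosphorylation, Eif4ebp1 (1.48), a repressor of cap-dependent translation, and Psph (1.68), of serine synthesis. The amino acid transporter genes Slc1a4 (1.92), Slc7a5 (1.85) and Slc3a2 (1.52) rose too, with adjusted p of 0.00775 to 0.0463 over the 8 genes. Slc7a11, the cystine transporter, was listed with 0 reads in the NT library of replicate 4 and 281 reads at RC4 (adjusted p = 0.00395), and was the only gene of the list to pass at RC8 (adjusted p = 0.0443, 72 reads).

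In RNA-seq, 3 of 24 genes of this list were at least 2-fold higher in AS and 1 at least 2-fold lower (4.19% and 1.5% of all genes), and 16 of 25 were higher at RC4 with 0 lower (17.2% and 15.3%). Scaled by library totals, 9 were higher and 1, Pck2, was lower at RC4. Atf3 had 184 reads in NT0h and 6398 in AS (29.9-fold), Ppp1r15a was 8.47-fold and Cth, of cysteine synthesis, 3.50-fold higher, while Slc7a11 had 87 reads in NT0h and 23 in AS (0.227). At RC4, Slc7a11 was 40.6-fold higher. In C2C12 cytoplasm 3 of 23 genes rose after AS (0.446% of all genes) and 11 of 23 at RC4 (4.82%), with 0 lower at either. In MT relative to MB total RNA 24 of 25 rose and 0 fell (32.6% and 29.3%).

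Over the 10 NIH3T3 total RNA libraries, the genes whose log2 level was most like that of Ddit3 among 5880 genes were 9430008C03Rik (Pearson r = 0.962), 3230401D17Rik (0.947), Gadd45g (0.944), F3 (0.943) and Zfp36 (0.941). Of the other 9 genes described here, Atf4 (0.916), Ddit4 (0.911) and Chac1 (0.895) were the most alike and Cebpb (−0.626) the least. These values are a description: the 10 libraries share 3 replicate sets whose levels differ.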

How the data were processed

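38 3′READS and 4 RNA-seq libraries of mouse cells were analysed. For 3′READS the authors trimmed with Cutadapt, aligned to mm9 with Bowtie2 (local mode) and deposited read counts for each PAS, not normalized. Their RNA-seq files hold unnormalized read counts over the coding sequence of each gene, from STAR alignments. A feature is missing from a library's file where it had fewer than 5 reads.

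PAS positions within 24 nt were joined and assigned to GENCODE M1 genes (NCBIM37) up to 4000 nt past the end. Counts were tested with edgeR 4.0.16 (quasi-likelihood, median-ratio scaling, filterByExpr, Benjamini-Hochberg, 0.05; SE = |log2 change| / √F) in R 4.3.3, with DESeq2 1.42.0, TMM or library-total scaling, no filter, annotated spans and left-out libraries as alternatives. RPM are scaled by the same factors within a set. With 1 library per group, a gene counted at 2-fold with at least 20 reads in the higher library; folds used a floor of 5 reads per library. In 4sU, Ft and RIP sets, levels were scaled per set. Intervals cover counting error only and none is given.

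The replicate numbers of NIH3T3 total RNA pair the samples (correlation of deviations 0.862, 0.847 and 0.794 for numbers 1, 2 and 4, and −0.54 to −0.26 otherwise), so the blocked fit is given there. The planned test was the fit without the block, with the block as an alternative. Taking the block as the rule for calls, with its own alternatives, was added after seeing the data. For TIA1 against input, a fit with 1 term per lysate (condition and number) was added likewise, since the study's methods take both RNAs from 1 lysate (correlations 0.309 and 0.334). On simulated counts, unblocked fits recovered 100% of 4-fold and 36% of 2-fold changes for AS in total RNA (9348 genes), and 70% and 9% for RC4 (9343 genes). These counts were drawn with a smaller spread than the data and with no differences between replicate sets. The unblocked fit of the real total RNA libraries had a common biological coefficient of variation of 0.741. The recovered shares therefore do not give the power in these data. Replicates of a group differed by more than sampling noise (chi-square per degree of freedom 2.40 to 124.34).

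The 10 genes, the wider list and the tests were chosen with earlier results of these data known. All 10 are named; of the wider list, those that passed in NIH3T3 total RNA and at most 5 by fold elsewhere; and the 5 genes most like Ddit3 in log2 RPM (mean of at least 20 RPM).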

Additional observations from a re-analysis of the deposited data

Results flagged for a closer look

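The RC4 response of Cebpb, a bZIP partner of ATF4, had opposite signs in the 2 cell lines in 3′READS, with NT4h as the untreated library where there was one. Its log2 ratio to NT was −0.46 to −0.14 in the 3 NIH3T3 pairs (total, 4sU and Ft RNA) and 1.76 to 2.02 in the 2 C2C12 pairs (MB and MT cytoplasm), and the means differed by 2.15. Against NT0h, the ratio of Cebpb was 0.617 in 4sU RNA and 1.015 in Ft RNA, and 4.81 in both MB and MT cytoplasm. The sign in Ft RNA therefore rested on the choice of untreated library. This difference between lines was not tested, and cell line and RNA fraction cannot be told apart, since C2C12 was cytoplasmic. In RNA-seq of NIH3T3 cells the ratio was 2.83-fold above NT4h by the median ratio and 1.62-fold by library totals, and it was 1.70-fold above NT0h by the median ratio.

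A PAS 4405 nt past the annotated end of Chac1 (chromosome 2, position 119184522, NCBIM37), beyond the limit of assignment, had 143 reads in the RC4 4sU library. It also had 19 reads in RC4 Ft, 9 in AS 4sU, 8 in AS total RNA of replicate 2 and 8 in RC4 total RNA, and it was not listed in any untreated library, where fewer than 5 reads are not shown. These reads entered no level of Chac1.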

How the results depend on the processing

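Of 61 results, mostly counts of genes, 49 were classed as the same under every alternative run, and of 41 values of single genes 19 were. A count was classed as the same within a set margin, so its size could differ. Differences in distal share were classed by sign alone. A value of a single gene was classed by its sign and by whether it passed, whatever its size. In NIH3T3 total RNA the replicate block raised the number of the 10 genes called from 0 to 2 after AS and to 5 at RC4. With the block, DESeq2 called 6 after AS (also Sesn2, Trib3, Atf4 and Ddit4), and leaving out both libraries of a replicate gave 0 to 3: 0 without replicate 1, Ddit3 alone without replicate 2, and Ddit3, Chac1 and Trib3 without replicate 4. Blocked DESeq2 also called 1 gene lower at each late time, Cebpb at RC8 and RC12 and Atf4 at RC24. The unblocked log2 value of Ddit3 at RC4, −0.39, was 1.34 with the block and −0.82 to 0.11 with 1 NT library left out. Over all genes, blocked AS counts ran from 4 higher without replicate 1 to 40 without replicate 4 (9 as reported) and to 87 with DESeq2, and blocked RC4 counts from 286 to 597 higher and from 116 to 498 lower.

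NT and AS libraries of the TIA1 set, and the C2C12 total libraries, share only replicate numbers (correlation of deviations 0.227 to 0.47 in the TIA1 set, 2 numbers, and 0.05), while TIA1 and input of 1 number are taken to share a lysate. The lysate block gave 1 gene higher in NT and 3 lower in AS cells. With the replicate block, 1 gene (Ddit4) was higher in TIA1 over input of NT cells, and 2 (Ddit3 and Atf4) were lower in AS cells, as with DESeq2 and without a filter. Over all genes, TIA1 NT counts were 864 higher and 950 lower with the block against 175 and 167, and at most 73 and 71 with a library left out; AS counts were 757 and 832 against 21 and 75, with 39 lower by TMM. The block moved Ddit4 in MT cells past the threshold (adjusted p = 0.0463) and changed no other call of the 10 genes. Without a filter, input RNA gave 20 higher and 3 lower against 1 and 0.

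In C2C12 cytoplasm after AS, DESeq2 called 6 of the 10, and leaving out 1 library gave 0 to 2; over all genes, DESeq2 gave 153 higher and 50 lower against 43 and 3, and RC4 counts fell to 209 higher and 92 lower with a library left out. For Atf4, whose main PAS lies 1 nt past the annotated end, the value after AS was −0.99 with annotated spans only (adjusted p = 0.451). By library totals, 5 genes were at least 2-fold higher in RNA-seq at RC4 and 2 in 4sU RNA; the U-adjusted Ft/4sU count at RC4 was 7. Minimums of 50 and 5 reads in place of 20 moved 1-library counts over all genes by over 1.5 times in several sets, most for genes lower in MB cells in AS, from 48 to 383 (143 as reported).

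Of 86 values of the 10 genes that pass in no fit, 45 changed sign under at least 1 alternative. Requiring at least 10% of reads at a second PAS left only Asns, which lacked reads, so it gave no value. Asns is limited by depth throughout, with 0 to 19 reads in C2C12 cytoplasm.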
